A study of Mus musculus with 51 samples.

Results

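BMC9 and BMC10 are clonal stromal lines from adult mouse bone marrow (BM), and the labels class them by their support of hematopoietic stem and progenitor cells (HSPCs) in co-culture: BMC9 as supportive, BMC10 as less supportive. The comparison rests on 6 of the 51 arrays of the series, the 3 titled BMC9 and the 3 titled BMC10, which were taken by their titles and not by any measured value. The series profiled stromal lines of fetal liver (FL), of BM and of the embryonic aorta-gonad-mesonephros region (AGM) on Affymetrix mouse gene 1.0 ST arrays. The AGM and FL lines compared further below came from embryos, the AGM lines from an earlier embryonic day than the FL lines. These lines thus differ from BMC9 and BMC10 in both tissue and age, though they too were grown at 33 °C. BMC9 and BMC10 share their strain label (H2ts6, which the labels do not spell out), their tissue and their adult age. Both were grown alone on gelatin at 33 °C and lysed in Trizol when confluent, and 100 ng of total RNA was labelled for each array. Each line is 1 clone, so a difference between them is a difference between clones, and support and clone cannot be told apart. The labels do not say that the 3 arrays of a line came from separate cultures; the spread behind the p-values is that between arrays and may be technical.

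Stromal cells of the marrow hold stem cells in place and feed them through secreted and membrane-bound factors. Perivascular cells rich in the chemokine CXCL12 and in stem cell factor (Kitl), often marked by the leptin receptor, are the best described source of these signals in adult marrow, and they also give rise to bone and fat cells. The matrix they lay down, and the growth factors it binds, are part of the same niche.

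Values are log2 signals, in which a difference of 1 is a doubling. Array medians over the 19938 genes measured lay between 7.20 and 7.32. The level of genes that such cells should not use was read from 1194 olfactory and vomeronasal receptor genes, whose 95th percentile was 6.12 to 6.29 in the 6 arrays, and a gene under it in every array of a line is called not above background. For such a gene a fold difference is given as a lower bound, set against that level. Arrays correlated at 0.992 or more within BMC9 and 0.994 or more within BMC10, and at 0.975 to 0.987 between the lines. The stromal label held in both lines: 11 of 13 measured stromal markers were above background in every BMC9 array and 10 in every BMC10 array, with Col1a1 at 12.79, 12.28 and 12.62 in BMC9, against 11.95, 11.88 and 11.24 in BMC10. The summed signal of the stromal markers was 14.42 to 14.92 in BMC9, against 13.36 to 13.96 in BMC10. Markers of leukocytes and vessels were mostly not above background: 4 of 13 hematopoietic markers were above it in BMC9 and 3 in BMC10, and 1 of 8 endothelial markers in each line. Other classes were not as low: in each line 3 of 5 epithelial markers and 2 of the 3 measured Schwann cell markers were above background in every array. The defining Ptprc (CD45) read 5.06, 5.08 and 5.18 in BMC9, against 5.29, 4.91 and 5.05 in BMC10, and the endothelial cadherin Cdh5 read 5.71, 5.81 and 5.81 in BMC9, against 5.76, 5.83 and 5.88 in BMC10, all under the background level. The leptin receptor Lepr was also not above background, at 4.53, 4.38 and 4.36 in BMC9, against 4.59, 4.39 and 4.51 in BMC10. Summed hematopoietic marker signal was 10.22 to 10.57 in BMC9 and 10.16 to 10.38 in BMC10, ranges that overlap.

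The comparison asked which genes separate a supportive marrow clone from a less supportive one of the same strain. By limma's linear model with Benjamini-Hochberg adjustment over all 19938 genes, 1452 genes were higher in BMC9 (7.28% of those tested) and 1630 were lower (8.18%). Of these, 256 higher and 217 lower genes differed at least 2-fold, and 26 and 9 at least 8-fold. In 1299 of the higher and 1462 of the lower genes, no BMC9 array overlapped a BMC10 array. The calls rest on the same values, so this separation adds no support to them, and its share over all genes is not given here. The model took its spread from all 39 confluent arrays of the series. Some of these were grown at a higher temperature than BMC9 and BMC10, and the arrays of the line OP9 differed in temperature among themselves. What temperature added to the spread was not tested. With only the 6 BM arrays in the fit, 625 genes were higher and 675 lower. Of these genes, 1284 were among the calls above with the same sign. With each array centred on its own median the split moved to 1087 higher and 2096 lower, so that 34.2% of the calls were higher in BMC9, against 47.1% as deposited. Among the genes named that passed, Aspn, Bmp5, C1s1, Cd36, Hgf, Itgb6, Lama4, Mir100, Mir196a-2, Mir218-2, Mirlet7c-1, Rspo3, Tbx20, Traf1, Tslp and Xist were not above background in either line or not beyond that level in the brighter one, and their differences carry no fold. In Angpt1, Arhgap32, Bcl6b, Chrdl1, Dlx5, Eif2s3y, Epha3, Grb10, Hey2, Ica1, Ifi202b, Ifi203, Il1rn, Kdm5d, Klra6, Lgr5, Lifr, Lipo3, Mir125b-1, Mir181b-2, Mir196a-1, Mir350, Mir708, Mir99a, Mme, Nlrp4e, Nox4, Osbpl6, Pcdh7, Postn, Ptgfr, Ptn, Ror1, Rorb, Rpl39l, Rps6ka6, Sema3e, Serpinb6b, Slc25a21, Sox2, Sp7, Tktl1, Tmem47 and Uty 1 line was not above background, so the log2 differences printed for them are of measured signals and their size is only bounded from below.

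The largest differences above BMC10 were in single genes that were bright in BMC9 and close to background in BMC10. The transketolase-like enzyme Tktl1 read 11.58, 11.75 and 11.29 in BMC9, against 5.61, 5.47 and 5.54 in BMC10. The latrophilin Adgrl2, an adhesion receptor of the G protein-coupled class, read 11.53, 11.56 and 11.85 in BMC9, against 6.53, 6.50 and 6.00 in BMC10. The ribosomal protein paralogue Rpl39l read 8.91, 8.93 and 9.02 in BMC9, against 4.15, 4.07 and 4.04 in BMC10. In each of the 3 genes the lowest BMC9 array was at least 4.76 log2 units above the highest BMC10 array, and BMC10 was not above background for Tktl1 and Rpl39l. Tktl1 was thus at least 41.1-fold higher in BMC9 and Rpl39l at least 6.84-fold (limma adjusted p = 3.16e-31 and 1.05e-29). Tkt, the main transketolase and paralogue of Tktl1, differed by -0.32 and did not pass (adjusted p = 0.0746).

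Among the 24 genes with the largest positive differences, 3 more stood out by their place in stromal signalling. Endoglin (Eng), a co-receptor for TGF-beta and BMP ligands and a marker of mesenchymal stroma, read 11.53, 11.38 and 11.47 in BMC9, against 7.09, 6.94 and 6.96 in BMC10. Surface markers of mesenchymal stroma did not all go this way: of 19 measured, 7 were higher and 3 lower, with a median difference of 0.07. Npr3, the clearance receptor for natriuretic peptides, read 10.55, 10.80 and 10.91 in BMC9, against 7.17, 6.53 and 6.30 in BMC10. The small junction protein Tmem47 read 9.81, 10.59 and 10.26 in BMC9, against 5.83, 5.67 and 5.34 in BMC10. All 9 BMC9 readings of Eng, Npr3 and Tmem47 lay above all 9 readings of BMC10. The list went on with lipoprotein lipase Lpl (3.93), carbonic anhydrase Car3 (3.88), pleiotrophin Ptn (3.80), the endocytic regulator Ehd3 (3.79), the small heat shock protein Hspb8 (3.79) and the Wnt modulator Sfrp2 (3.67). It also held the nuclear receptor Rorb (3.39), the adhesion receptor Adgrf5 (3.33), Hoxb9 (3.31), the transcriptional co-activator Eya4 (3.27), Arhgap32 (3.22), neprilysin (Mme, 3.15), the glypican Gpc6 (3.12) and Taf9b (3.12). Mme was the least even of them, at 9.66, 8.04 and 7.47 in BMC9, against 5.29, 5.31 and 5.10 in BMC10. Standard errors of the 24 differences were 0.088 to 0.283, and in 11 of the 24 BMC10 was not above background in any array; for these the lower bounds ran from 3.51-fold for Uty to 41.1-fold for Tktl1.

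**Figure D1:**
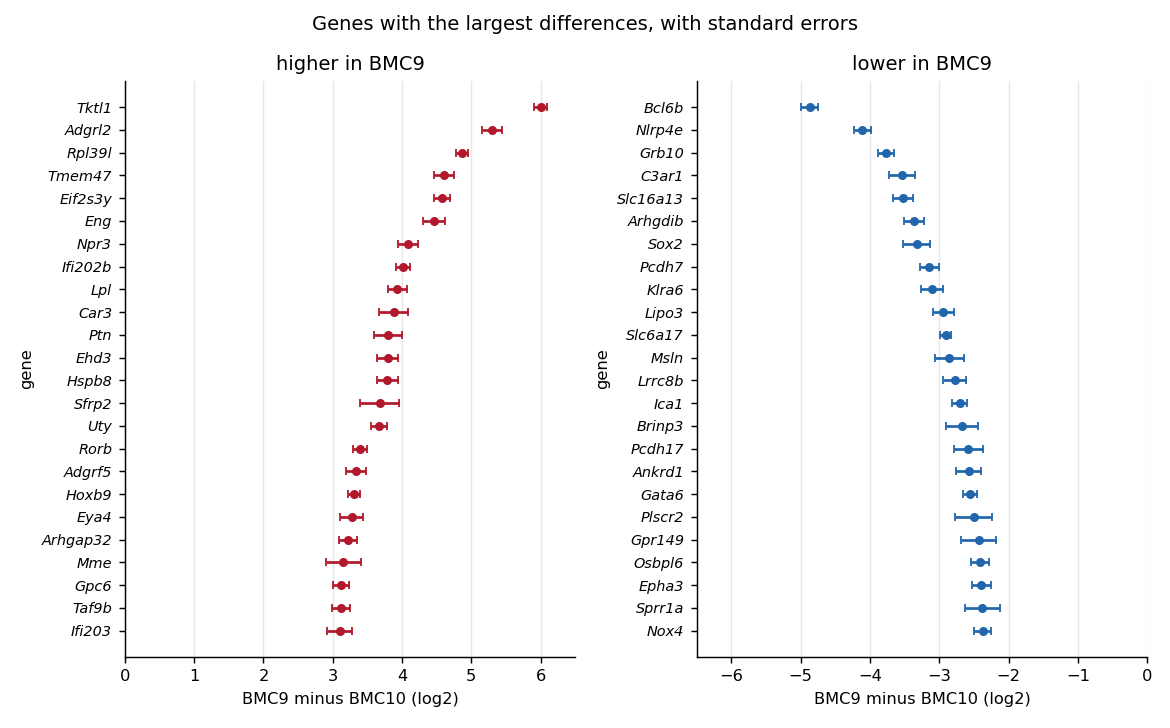
Difference between BMC9 and BMC10 on the log2 scale for the 24 genes with the largest positive differences (left panel) and the 24 with the largest negative ones (right panel). Points are fitted differences of 3 arrays against 3 and bars are standard errors; positive differences run to 6.00 for Tktl1 and negative ones to -4.87 for Bcl6b, and no bar reaches 0.

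Lower in BMC9 were the transcriptional repressor Bcl6b, a relative of Bcl6, at 5.82, 5.42 and 5.71 in BMC9, against 10.12, 10.83 and 10.61 in BMC10, and the adaptor Grb10, an imprinted brake on insulin and IGF receptor signalling, at 5.37, 5.79 and 6.10 in BMC9, against 9.51, 9.70 and 9.36 in BMC10. C3ar1, the receptor for the complement fragment C3a, read 6.38, 6.57 and 6.62 in BMC9, against 10.28, 9.49 and 10.41 in BMC10. BMC9 was not above background for Bcl6b and Grb10, so that Bcl6b was at least 19-fold lower in BMC9 (adjusted p = 3.09e-25). Nlrp4e, a gene of the NLR family best known from oocytes, read 3.80, 4.03 and 4.30 in BMC9, against 7.95, 7.98 and 8.53 in BMC10, and the natural killer receptor gene Klra6 read 4.09, 4.11 and 3.95 in BMC9, against 7.53, 6.69 and 7.23 in BMC10. The transcription factor Sox2, a pluripotency and neural progenitor gene, read 4.49, 4.64 and 4.54 in BMC9, against 7.27, 7.54 and 8.84 in BMC10. Gata6 read 7.24, 7.03 and 7.10 in BMC9, against 9.70, 9.70 and 9.63 in BMC10. For each of these 7 genes the lines did not overlap. Further down came the lactate transporter relative Slc16a13 (-3.52), Arhgdib (-3.37), the protocadherins Pcdh7 (-3.14) and Pcdh17 (-2.58), Lipo3 (-2.94), the amino acid transporter Slc6a17 (-2.91) and mesothelin (Msln, -2.86). The anion channel subunit Lrrc8b (-2.78), Ica1 (-2.70), Brinp3 (-2.67), the YAP-responsive Ankrd1 (-2.58), Plscr2 (-2.51), Gpr149 (-2.43), Osbpl6 (-2.41), the ephrin receptor Epha3 (-2.39), Sprr1a (-2.38) and the NADPH oxidase Nox4 (-2.38) completed the 24. Their standard errors were 0.082 to 0.262. BMC9 was not above background for 11 of the 24, with lower bounds from 1.85-fold for Klra6 to 19-fold for Bcl6b.

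The marrow lines were also set against the AGM lines UG26.1B6 and UG26.3B5 and the FL lines AFT024 and BFC012, which were normalized together with them. Of the 1452 genes higher in BMC9, BMC9 stood above all 15 other arrays of the 18 in 297, and BMC10 stood below all 15 in 223. Of the 1630 lower genes, BMC9 stood below all other arrays in 261, and BMC10 stood above them in 273. These counts cover only genes called between BMC9 and BMC10, a choice that already sets the lines apart, and counts over all genes are not given here. For 936 of the higher and 1098 of the lower genes neither line stood outside the others, so most differences lay within the range that the other lines also covered. Both patterns occurred among the 24 leading genes of each direction: BMC9 stood above the others in 9 and BMC10 below them in 7, while BMC9 stood below in 7 and BMC10 above in 7 of the lower ones.

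Known niche factors were more often higher than lower in BMC9. Of 36 measured factors that act on stem cells, 12 were higher and 1 lower, and 23 did not pass, with a median difference of 0.12 beside 0.03 over all genes (6 higher and 1 lower with the 6 BM arrays alone). The chemokine Cxcl12, which holds HSPCs in the marrow, read 11.42, 10.26 and 10.54 in BMC9, against 8.44, 7.82 and 8.22 in BMC10. Stem cell factor, Kitl, read 10.34, 9.53 and 9.68 in BMC9, against 9.29, 9.10 and 9.14 in BMC10. Angiopoietin-1 (Angpt1), a ligand of the Tie2 receptor, read 8.73, 7.04 and 7.34 in BMC9, against 5.30, 4.72 and 4.66 in BMC10. Cxcl12 and Angpt1 were well apart in the lines, with differences of 2.58 ± 0.19 and 2.81 ± 0.22 in measured signal (SE; limma adjusted p = 1.14e-12 and 5.32e-12), of which that of Angpt1 is only bounded, at 2.88-fold or more, since BMC10 was not above background, while Kitl was bright in both lines and differed by only 0.67 ± 0.21 (adjusted p = 0.0213). Pleiotrophin (Ptn), a heparin-binding growth factor that expands HSPCs in culture, read 9.70, 9.16 and 9.43 in BMC9, against 5.95, 5.33 and 5.62 in BMC10. Its BMC10 readings were all under the background level, so that it was at least 9.52-fold higher in BMC9. Insulin-like growth factor 1 (Igf1) read 8.26, 7.34 and 8.33 in BMC9, against 7.89, 6.93 and 6.56 in BMC10, with 1 BMC10 array inside the BMC9 range. The other members that passed upward were Bmp4 (2.01), the matrix protein Postn (1.47), the adhesion protein Emb (1.42), Ccn3 (1.10), Angptl4 (0.83), the chemokine Ccl5 (0.63) and the matrix protein Sparc (0.23). The BMP antagonist Grem1 was the member lower in BMC9, at 8.98, 9.58 and 9.18 in BMC9, against 10.21, 10.79 and 10.68 in BMC10, a difference of -1.31. Calls of the smaller differences rested on single arrays. Without the first BMC9 array Kitl differed by 0.43 (adjusted p = 0.215), Ccn3 by 0.22 (adjusted p = 0.588) and Sparc by 0.18 (adjusted p = 0.102). Igf1 differed by 0.57 without the third BMC10 array (adjusted p = 0.121) and Angptl4 by 0.46 without the second (adjusted p = 0.154). With the 6 BM arrays alone Kitl, Igf1, Angptl4, Ccn3, Bmp4 and Sparc did not pass (adjusted p = 0.0872 to 0.425). With the replicate number as a block in that fit, Kitl, Angptl4 and Bmp4 passed (adjusted p = 0.0159, 0.0117 and 0.0132), and Igf1, Ccn3 and Sparc did not (adjusted p = 0.0821, 0.117 and 0.16).

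**Figure D2:**
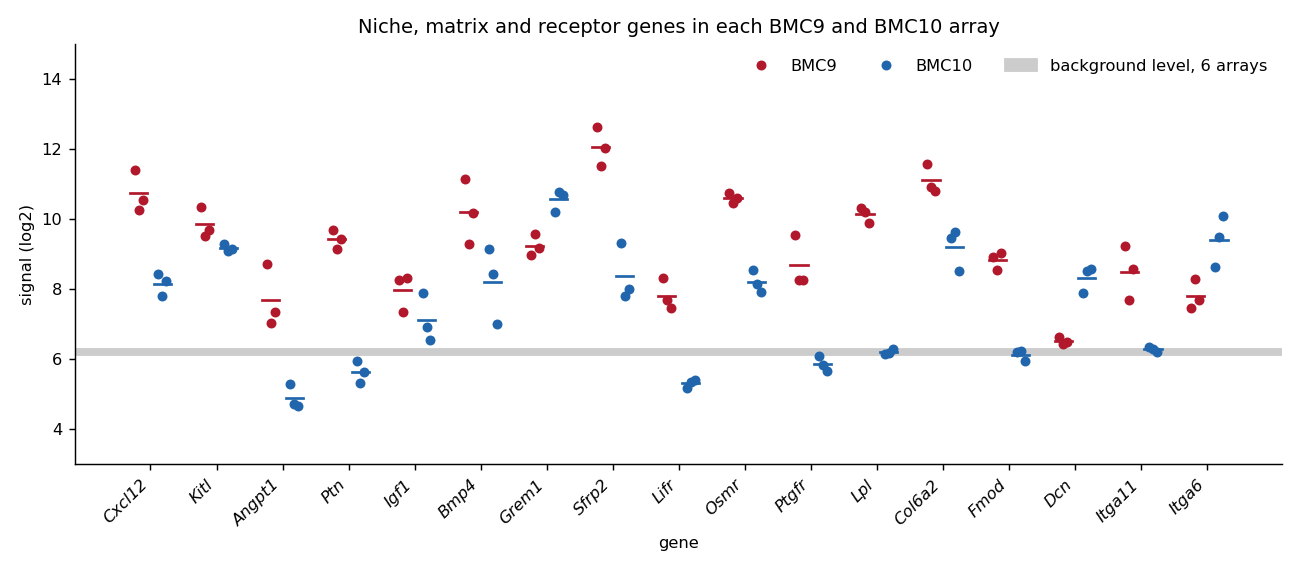
Log2 signal of 17 niche, receptor and matrix genes in each array, with the 3 BMC9 arrays left of the 3 BMC10 arrays, a short line for each mean and a grey band for the background level of the 6 arrays (6.12 to 6.29). The BMC9 mean lies above the BMC10 mean for all but Grem1, Dcn and Itga6, and the BMC10 arrays of Angpt1, Ptn and Lifr lie under the band.

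The genes that mark CXCL12-abundant reticular and leptin receptor-positive stroma moved one way: 11 of 21 were higher in BMC9 and 0 lower, and 10 did not pass, with a median difference of 0.67 (7 higher and 0 lower with the 6 BM arrays alone). This list shares Cxcl12, Kitl and Angpt1 with the niche factors. Its largest member, lipoprotein lipase (Lpl), read 10.32, 10.20 and 9.90 in BMC9, against 6.14, 6.18 and 6.30 in BMC10. The BMP antagonist Chrdl1 (1.65), angiotensinogen (Agt, 1.33), the PDGF receptors Pdgfra (1.31) and Pdgfrb (0.98), the ligand Gas6 (1.25), Igfbp4 (0.98) and the transcription factor Ebf3 (0.89) passed too, though not Agt, Pdgfra or Pdgfrb with the 6 BM arrays alone. With the replicate block in that fit Pdgfra and Pdgfrb passed (adjusted p = 0.00542 and 0.0366) and Agt did not (adjusted p = 0.0585). Agt differed by 0.57 without the first BMC9 array (adjusted p = 0.101), and Pdgfrb by 0.54 without the third BMC10 array (adjusted p = 0.0377). Of 15 measured osteoblast genes 5 were higher and 0 lower, among them the transcription factors Dlx5 (1.90) and Sp7 (1.13), alkaline phosphatase (Alpl, 1.02), the decoy receptor Tnfrsf11b (0.98) and its ligand Tnfsf11 (0.42). Of 20 adipocyte genes 7 were higher and 2 lower. Beside Lpl, the fatty acid carriers Cd36 (1.24) and Fabp4 (0.95) and the adipogenic regulators Cebpa (0.90), Zfp423 (0.63) and Pparg (0.42) were higher, and Klf5 (-1.18) and the lipase Pnpla2 (-0.45) were lower. The median of the osteoblast list was 0.21 and that of the adipocyte list 0.15. Chondrocyte genes gave 3 higher and 1 lower of 16, led by Sox5 (-0.69) and Sox9 (0.61), and none of these 4 passed with the 6 BM arrays alone.

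In the list of cytokines and their receptors, which does not hold the chemokines, 2 receptors of the interleukin-6 family had the largest measured differences. The leukaemia inhibitory factor receptor Lifr read 8.31, 7.69 and 7.45 in BMC9, against 5.17, 5.35 and 5.41 in BMC10. The oncostatin M receptor Osmr read 10.74, 10.47 and 10.60 in BMC9, against 8.55, 8.14 and 7.93 in BMC10. Every BMC9 array was above every BMC10 array in both, and Lifr was not above background in BMC10, where it was at least 3.11-fold lower than in BMC9. In the list of cytokines and their receptors 8 of 28 measured members were higher and 2 lower, Il15 (0.90) and Il1rn (0.61) among the higher and Il34 (-0.80), a ligand of the CSF-1 receptor, and Tslp (-0.44) the lower. Chemokines and their receptors, mostly not above background, gave 6 higher and 1 lower of 57. These shares were 10.5% and 1.75%, beside 7.28% and 8.18% of all genes. After Cxcl12 the monocyte attractants Ccl7 (0.90) and Ccl2 (0.46) were among the higher, and the scavenging CXCL12 receptor Ackr3 (-0.33) was the lower one. NF-kB response genes ran the other way, with 2 of 23 higher and 7 lower. Those lower in BMC9 were the adaptor Traf1 (-0.97), the apoptosis inhibitor Birc3 (-0.84), cyclooxygenase-2 (Ptgs2, -0.79), the subunit gene Nfkb2 (-0.75), the inhibitors Nfkbie (-0.61) and Tnfaip3 (-0.43), and Tnfaip2 (-0.54). Ccl7 and Ccl2 were the members that were higher, and the list's median was 0.004.

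In the list of interferon-inducible genes, members were higher in BMC9 or did not pass: of 35 measured, 7 were higher and 0 lower, and 28 did not pass. The p200 family members Ifi202b and Ifi203, which bind nucleic acids, led the list. Ifi202b read 8.12, 8.24 and 7.82 in BMC9, against 4.15, 4.03 and 3.96 in BMC10. Ifi203 read 8.89, 8.87 and 8.48 in BMC9, against 5.75, 5.67 and 5.52 in BMC10. The lines were separate for both genes, and Ifi202b was not above background in BMC10, giving a lower bound of 3.68-fold. Rtp4 (1.77), Ifit1 (1.49), Oasl2 (1.15), Oasl1 (0.96) and Irgm1 (0.73) were the others, and the median over the list was 0.24. Interferon-inducible genes that the list does not hold also ran the other way: Aim2 (-1.07), a p200 family gene, Sp100 (-1.03) and Sp140 (-0.79) were lower in BMC9. Genes of MHC class I and antigen processing did not share this: 1 of 17 was higher (Tap2, 0.34), and H2-Q4 (-0.93) and B2m (-0.31) were lower. Their shares, 5.88% and 11.8%, were near the 7.28% and 8.18% of all genes.

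Wnt signalling genes that passed were mostly higher in BMC9. The secreted frizzled-related protein Sfrp2 read 12.62, 11.53 and 12.02 in BMC9, against 9.33, 7.81 and 8.01 in BMC10. Of 19 secreted modulators 3 were higher and 0 lower, the others being the R-spondins Rspo2 (1.70) and Rspo3 (0.65), which amplify Wnt signals. Of 37 ligands and receptors 8 were higher and 1 was lower. The ligands Wnt5a (1.48) and Wnt10b (0.70), the R-spondin receptors Lgr4 (1.11) and Lgr5 (0.73), the frizzleds Fzd8 (0.92), Fzd1 (0.57) and Fzd6 (0.46) and the co-receptor Ror1 (0.45) were higher, and Fzd7 (-1.06) was lower. Among 22 effectors and targets 5 were higher and 1 lower, with opposite differences in the transcription factors Tcf7l1 (1.57) and Lef1 (-0.84).

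Ligands of the TGF-beta family gave 4 higher and 1 lower of 20. Bmp4 read 11.15, 9.28 and 10.19 in BMC9, against 9.16, 8.42 and 7.01 in BMC10, with the lowest BMC9 array just above the highest BMC10 array. Tgfb2 (1.69), Tgfb3 (1.03) and Bmp5 (0.40) were higher, and Gdf11 (-0.59) was lower. Of 17 receptors and co-receptors Eng and Tgfbr1 (0.42) passed, both higher (11.8%, beside 7.28% of all genes). The antagonists and targets were mixed, 6 higher and 4 lower of 23: the target Tgfbi (2.47), Chrdl1, the latent TGF-beta binding proteins Ltbp2 (1.08) and Ltbp1 (0.30), Bmper (0.85) and Smad6 (0.54) were higher, and Grem1, follistatin (Fst, -1.15), Id2 (-0.74) and Nbl1 (-0.57) were lower. Growth factor receptors and ligands of the FGF, PDGF, VEGF, EGF and HGF families counted 8 higher and 2 lower of 39. The keratinocyte growth factor receptor gene Fgfr2 read 10.20, 9.58 and 9.55 in BMC9, against 7.62, 7.45 and 6.73 in BMC10, with the lines apart. The EGF receptor ligands Ereg (-1.46) and Hbegf (-0.96) were lower, while another ligand of the ErbB family, Nrg1 (0.61), and Hgf (0.54) were higher. In the Notch list 4 of 21 were higher, led by the receptor Notch4 (1.22) and the target Hey2 (0.93), and 2 were lower, Lfng (-0.54) and Hes6 (-0.47).

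The collagen genes were higher in BMC9 or did not pass. Of 17 fibrillar and associated collagens 9 were higher and 0 lower, with a median difference of 0.43 (6 higher and 0 lower with the 6 BM arrays alone). Col6a2 read 11.57, 10.93 and 10.81 in BMC9, against 9.45, 9.64 and 8.52 in BMC10, and its partner chain Col6a1 differed by 1.38. Col12a1 (1.51), Col3a1 (1.04), Col1a1 (0.87) and Col1a2 (0.77) followed. The matricellular and elastic fibre list gave 10 higher and 1 lower of 28: Tgfbi, the CCN proteins Ccn5 (2.11) and Ccn4 (0.91), Postn and Fbln1 (0.62) were among the higher, and the microfibril protein Mfap5 (-1.64) was the lower one. Small proteoglycans split. Fibromodulin (Fmod) read 8.93, 8.54 and 9.02 in BMC9, against 6.21, 6.22 and 5.95 in BMC10. Decorin (Dcn), a binder of collagen and TGF-beta, read 6.65, 6.44 and 6.49 in BMC9, against 7.89, 8.52 and 8.59 in BMC10. Fmod was separate in the direction of BMC9 and Dcn in the direction of BMC10, with Aspn (1.44) and Prelp (1.03) also higher in BMC9. The metalloproteinases and their inhibitors gave 7 higher and 1 lower of 44, with the aggrecanase Adamts5 (1.70), Mmp23 (1.41), Adamts12 (1.22), gelatinase A (Mmp2, 1.15) and Adamts1 (0.93) leading and Adamts14 (-0.31) lower.

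Basement membrane genes did not follow the collagens, with 4 higher and 5 lower of 25. The laminin chains Lama5 (-1.26), Lamb1 (-0.88) and Lamc1 (-0.51), Npnt (-0.50) and Nid1 (-0.36) were lower, and Nid2 (0.85), Col4a6 (0.72), agrin (Agrn, 0.70) and Lama4 (0.34) were higher. Integrin subunits that passed went in both directions. The collagen receptor subunit Itga11 read 9.22, 7.70 and 8.57 in BMC9, against 6.35, 6.30 and 6.20 in BMC10. The laminin receptor subunit Itga6 read 7.47, 8.30 and 7.68 in BMC9, against 8.65, 9.49 and 10.09 in BMC10. Itga11 was higher in every BMC9 array and Itga6 was lower in every one, and Itga3, also a laminin receptor subunit, was lower too (-1.01). Itgb3 (0.78) was higher and Itgb6 (-0.48) lower, and 22 of 27 integrins did not pass. The shares that passed, 7.41% higher and 11.1% lower, were near the 7.28% and 8.18% of all genes.

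Other surface and guidance genes showed both directions. Of 13 latrophilin, teneurin and FLRT-type adhesion genes, 4 were higher and 2 lower: Adgrl2, the netrin receptor Unc5c (1.14), the teneurin Tenm4 (0.73) and Flrt3 (0.29) against the related latrophilin Adgrl1 (-0.87) and Unc5b (-0.87). Of 34 cadherins and protocadherins 2 were higher, led by P-cadherin (Cdh3, 2.79), and 4 were lower, all of them protocadherins. These shares, 5.88% and 11.8%, were near the 7.28% and 8.18% of all genes. In the 69 axon guidance genes 13 were higher (18.8%) and 7 lower (10.1%), beside 7.28% and 8.18% of all genes. Epha3 and Sema5a (-2.32) were the lowest, followed by the Robo ligand Slit3 (-1.44), while Ephb6 (1.77), Sema3e (1.55), Epha7 (1.50), the ephrins Efna1 (1.01) and Efna5 (1.01) were higher. Genes of prostaglandin and lysophospholipid signalling gave 5 higher and 5 lower of 24. The prostaglandin F receptor Ptgfr read 9.55, 8.25 and 8.25 in BMC9, against 6.09, 5.84 and 5.67 in BMC10, with the lines apart and BMC10 not above background, a bound of at least 5.68-fold. The sphingosine 1-phosphate receptors S1pr1 (1.18) and S1pr3 (-0.60) differed in opposite directions, as did the lysophosphatidic acid receptors Lpar4 (1.17) and Lpar6 (-0.70), and the prostaglandin E receptor Ptger4 (-1.05) was lower. The 3 natriuretic peptide receptors were all higher: beside Npr3, the guanylyl cyclases Npr2 (0.86) and Npr1 (0.41) passed.

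Hox genes record the position along the body axis from which a mesenchymal cell came, and their 4 clusters behaved differently. In the Hoxb cluster, on chromosome 11, 7 of 9 measured genes were higher in BMC9 and 0 lower. In the Hoxc cluster, on chromosome 15, 7 of 9 were lower and 0 higher. In the Hoxa cluster 1 of 10 was higher (Hoxa7, 0.33) and 1 lower (Hoxa13, -0.40), and in the Hoxd cluster 0 of 9 passed in either direction. Hoxb9 read 10.37, 10.58 and 10.43 in BMC9, against 7.02, 7.34 and 7.10 in BMC10. Hoxc8 read 7.07, 7.04 and 6.87 in BMC9, against 8.70, 9.05 and 8.66 in BMC10. BMC9 was above BMC10 in every array for Hoxb9 and below it in every array for Hoxc8. The other Hoxb genes that passed were Hoxb2 (0.45), Hoxb3 (1.04), Hoxb4 (0.80), Hoxb5 (1.32), Hoxb6 (1.02) and Hoxb13 (1.03), and Hoxb1 (0.19) and Hoxb7 (0.27) did not pass. On the Hoxc side Hoxc4 (-0.79), Hoxc5 (-1.18), Hoxc6 (-1.75), Hoxc9 (-1.27), Hoxc10 (-1.31) and Hoxc11 (-1.17) were lower, and Hoxc12 (-0.05) and Hoxc13 (0.22) did not pass. BMC10 stood below all 15 other arrays of the normalization set for Hoxb2, Hoxb3, Hoxb4, Hoxb5, Hoxb6 and Hoxb9, whereas for Hoxc8 both lines lay within the range of the others. Genes of 1 cluster lie side by side, and the probe sets cannot tell transcripts that run through several of them from separate transcripts.

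**Figure D3:**
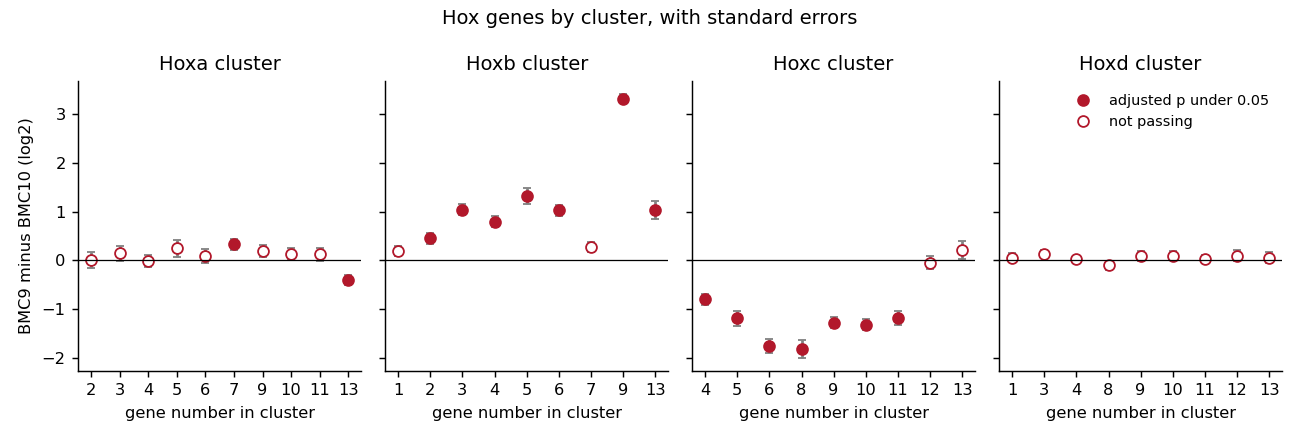
Difference between BMC9 and BMC10 (log2) for each measured Hox gene, in 4 panels by cluster and in order of gene number, with bars for standard errors, filled points for adjusted p under 0.05 and open points otherwise. Hoxb points lie above 0 up to 3.31, Hoxc points from 4 to 11 lie between -0.79 and -1.81, and Hoxd points lie near 0.

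Other transcription factors of development moved in both directions. In the Sox, Fox, Tbx and Gata families 9 of 80 were higher (11.2%) and 11 lower (13.8%). Among all genes above background in at least 3 of the 6 arrays the shares were 9.7% and 11.7%, so these counts were near those of genes at large. Beside Sox2 and Gata6 the lower ones included Tbx3 (-1.47) and Foxq1 (-0.99), and the higher ones Gata3 (1.23), Tbx15 (1.01) and Tbx20 (0.71). Of 55 genes of the Dlx, Msx, Pax and related families, 9 were higher, among them Dlx5, Lhx9 (1.18), Six4 (0.97), Pax9 (0.94) and Dlx6 (0.73), and 4 were lower, among them Pax3 (-1.33) and Msx2 (-0.86). Imprinted genes gave 6 higher and 4 lower of 32, with Mest (2.37), Plagl1 (1.89) and Cdkn1c (0.67) higher and Grb10 and Peg12 (-0.86) lower.

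MicroRNAs are short RNAs that pair through their seed, bases 2 to 8, with target messages and lower their output. The array's probe sets measure transcripts of miRNA genes, not the mature forms. Of 291 miRNA genes and host transcripts measured, 5 were higher in BMC9 (1.72%) and 17 lower (5.84%), with a median difference of 0.001. Both shares lay below the 7.28% and 8.18% of all genes. Of the 291, 183 were above background in all 3 arrays of neither line. RefSeq (build GRCm38.p6) held sequences for 262 of the 291. The mature strands of 6 of these genes follow, 5′ to 3′ with the seed in capitals. They are shown because their genes lie inside a Hox cluster, in a shared family or inside a host gene that also passed; all but miR-196a were picked after their values were seen.
miR-196a-5p: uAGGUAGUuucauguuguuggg
miR-99a-5p: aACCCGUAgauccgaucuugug
miR-100-5p: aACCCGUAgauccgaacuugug
miR-125b-5p: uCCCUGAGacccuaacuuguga
miR-708-5p: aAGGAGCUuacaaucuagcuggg
miR-218-5p: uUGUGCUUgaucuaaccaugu

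Mir196a-1, which lies in the Hoxb cluster at chr11:96265187-96265208 (position of the mature sequence; all positions given here are on the plus strand), read 6.51, 7.08 and 6.49 in BMC9, against 4.86, 4.69 and 4.64 in BMC10. BMC10 was not above background, so Mir196a-1 was at least 1.43-fold higher in BMC9 (limma adjusted p = 2.75e-12). Mir196a-2, the copy in the Hoxc cluster, yields the same mature sequence and differed the other way, by -0.47, with 4.95, 5.19 and 4.99 in BMC9, against 5.72, 5.44 and 5.37 in BMC10. The 2 copies thus had the direction of the Hox genes around them, though Mir196a-2 was not above background in either line. Mir99a at chr16:77598940-77598961 and Mir100 at chr9:41531437-41531458 share the seed ACCCGUA. Mir99a differed by -0.99, and its host transcript Mir99ahg by -1.01. Mir100 (-0.48), Mir125b-1 (-0.66) and their host Mir100hg (-0.59) were lower as well, so that both miR-99 family transcripts had the same direction. Mirlet7c-1, next to Mir99a, was also lower (-0.89).

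In 4 cases a protein-coding gene around the miRNA gene passed and differed the same way, and in other cases it did not pass. Mir708, at chr7:96249450-96249472 inside the teneurin gene Tenm4, was higher by 0.72, and Tenm4 by 0.73. Mir218-2, at chr11:35616840-35616860 inside Slit3, differed by -0.63, and Slit3 by -1.44. The others were Mir350 (-0.57) in Cep170 (-0.32) and Mir694 (-0.29) in Ccbe1 (-1.65). For Mir181b-2 the enclosing gene Nr6a1 did not pass (-0.08, against -0.69 for the miRNA gene). Further miRNA genes that passed also lay in protein-coding genes that did not (limma adjusted p of the enclosing gene 0.182 to 0.708). With the 6 BM arrays alone 3 miRNA genes were higher and 2 lower, so most of the lower calls, Mir99a, Mir100, Mir125b-1 and Mir218-2 among them, depend on the spread taken from the other lines, as does the call of Tenm4. Of 51 small nucleolar RNA genes 0 were higher and 6 lower, with a median of -0.26.

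The Y-linked genes Eif2s3y, Uty and Kdm5d were higher in BMC9. Eif2s3y read 7.78, 8.52 and 8.36 in BMC9, against 3.66, 3.60 and 3.67 in BMC10. Uty read 7.62, 8.32 and 8.03 in BMC9, against 4.44, 4.26 and 4.28 in BMC10. Kdm5d read 7.55, 7.99 and 7.45 in BMC9, against 4.85, 4.93 and 4.66 in BMC10. All BMC10 readings of Eif2s3y, Uty and Kdm5d were under the background level, and the lines did not overlap in any of the 3. Their X-linked partners Eif2s3x (-0.03), Kdm6a (0.06) and Kdm5c (0.08) did not pass. Xist, the RNA that coats the inactive X, read 4.91, 4.98 and 4.93 in BMC9, against 5.23, 5.81 and 5.32 in BMC10, a difference of -0.51 that passed with both lines not above background. The germline list held Tktl1 and Rpl39l among 6 higher genes of 32 and Nlrp4e as the 1 lower; 25 of the 32 were not above background in either line.

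Metabolic genes differed moderately. Of 27 glycolysis and pentose phosphate genes 8 were higher and 1 lower; after Tktl1 the higher ones were led by Eno2 (0.82), Ldhb (0.76), the lactate exporter Slc16a3 (0.72) and phosphofructokinase Pfkl (0.51), and transaldolase (Taldo1, -0.32) was the lower one. Of 20 hypoxia response genes 7 were higher, including lysyl oxidase (Lox, 1.10), Bnip3 (0.95), and the collagen prolyl hydroxylases P4ha2 (0.72) and P4ha1 (0.66), and 2 were lower, Car12 (-1.42) and Mxi1 (-0.41). Cholesterol and fatty acid synthesis genes showed 1 higher of 27 (Acss2, 1.09) and 0 lower. In the cell cycle list 3 were higher and 3 lower of 35, all by less than 0.5 log2 units, with Rrm2 (0.43) and E2f2 (-0.40) the largest. These shares, 8.57% each, were near the 7.28% and 8.18% of all genes. The retinoid binding proteins Crabp1 (-1.53) and Crabp2 (-1.42) were lower in BMC9, and the retinoic acid hydroxylase Cyp26b1 (0.94) was higher.

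Calls gathered on some chromosomes. Among genes above background in at least 3 of the 6 arrays, 9.7% were higher and 11.7% lower in BMC9. On chromosome 13, 160 of 457 such genes were lower (35%) and 17 higher, 362 had a negative difference, and the median was -0.223. On chromosome 12, 129 of 457 were higher (28.2%) and 24 lower, with a median of 0.139. Chromosome 1 also leaned downward, with 178 of 740 lower, 44 higher and a median of -0.119. So did chromosome 18, with 71 of 316 lower, 21 higher and a median of -0.118, and chromosome 5, with 162 of 834 lower, 56 higher and a median of -0.087. Per array, the median deviation of chromosome 13 genes was -0.107, -0.061 and -0.100 in BMC9, against 0.099, 0.077 and 0.126 in BMC10. For chromosome 12 it was 0.083, 0.082 and 0.070 in BMC9, against -0.048, -0.105 and -0.061 in BMC10. The arrays of the lines did not overlap on either chromosome. Set against the mean of the 4 AGM and FL lines, the chromosome 13 median was -0.014 in BMC9 and 0.170 in BMC10, and the chromosome 12 median was 0.009 in BMC9 and -0.145 in BMC10, so that BMC10 lay farther from the other lines on both. The median difference on chromosome 13 was 0.191 in the AGM pair and -0.055 in the FL pair. The shift was carried by many small differences: the largest on chromosome 13 were Tgfbi, Edil3 (2.40), Tmem171 (-2.33), Elmo1 (1.78), Serpinb6b (-1.73) and Tmem267 (1.63), which point both ways.

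Along the gene order, chromosome 13 was low over its whole length, while on chromosomes 12 and 3 the differences were largest in stretches whose limits were chosen after the values were seen. On the distal part of chromosome 12, 17 of 22 neighbouring genes from Tmem179 to Tmem121 were higher in BMC9 and 0 lower, with a median of 0.796 beside 0.129 over the other 435 genes of the chromosome. Crip1 was the largest (1.71), and Siva1 (0.86), Akt1 (0.50), Nudt14 (1.07), Brf1 (0.84), Pacs2 (0.95) and Mta1 (0.86) took part, while Jag2 (0.17) and Gpr132 (0.10) did not pass. Against the 4 AGM and FL lines this stretch had a median of 0.415 in BMC9 and -0.129 in BMC10. At the proximal end of chromosome 3, 53 of 109 genes up to Nhlrc3 were higher and 6 lower, with a median of 0.311 beside 0.014 over the other 510, and a median against the 4 other lines of 0.407 in BMC9 and 0.058 in BMC10. Gene copy number was not measured on these arrays, and its part in the shifts was not tested.

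**Figure D4:**
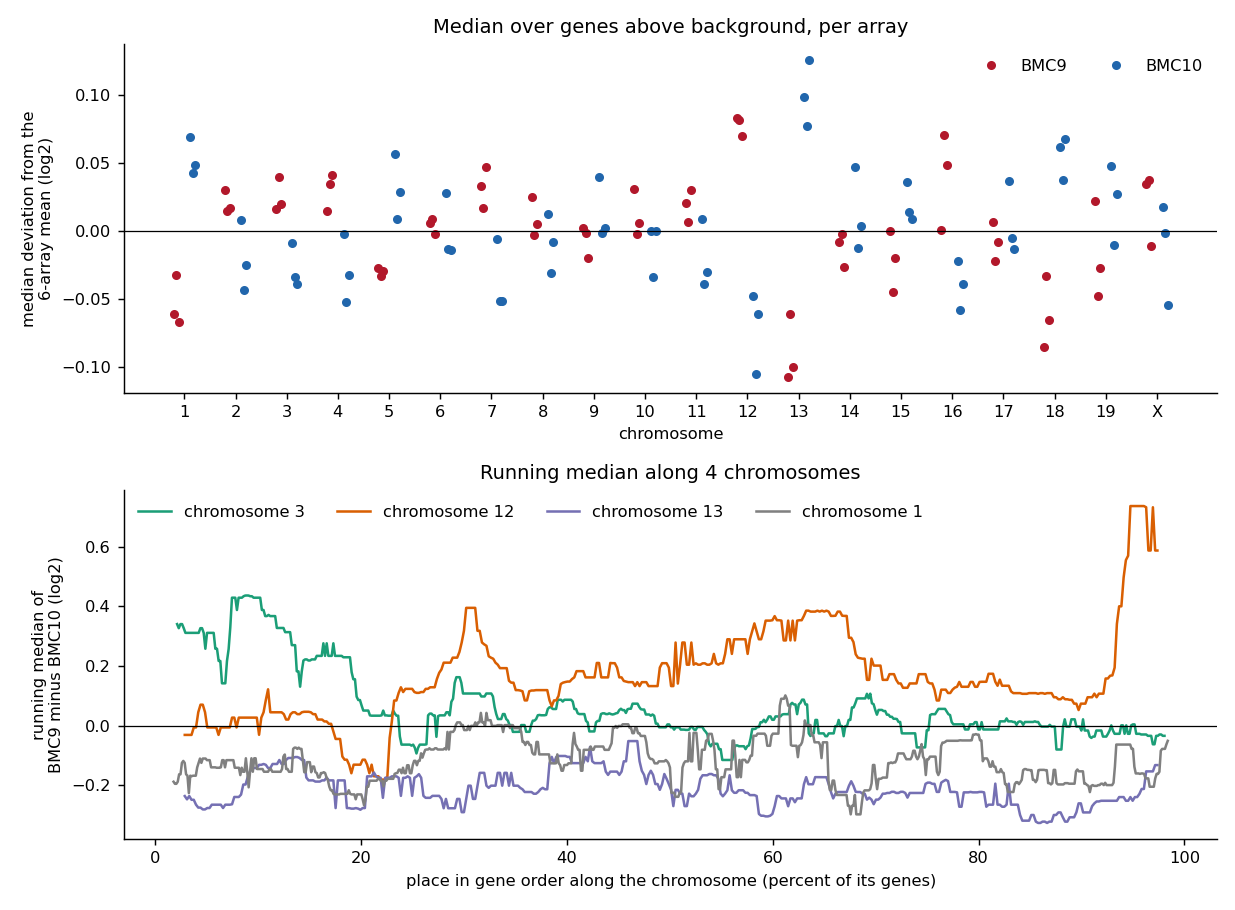
Top, median deviation from the 6-array mean (log2) over the genes above background of each chromosome, with the 3 BMC9 arrays left of the 3 BMC10 arrays; bottom, running median over 25 neighbouring genes of the difference between BMC9 and BMC10 (log2) along 4 chromosomes, by place in the gene order. Chromosome 13 lies below 0 along its length, and chromosome 12 ends in a stretch that reaches above 0.7.

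Whether these differences were particular to the marrow pair was tested against the AGM pair (UG26.1B6, supportive, and UG26.3B5, less supportive) and the FL pair (AFT024, supportive, and BFC012, non-supportive), which share no array with it. The marrow difference exceeded both other differences in 569 genes (2.85% of those tested) and lay below both in 685 (3.44%). Of these, 475 and 573 were also called between BMC9 and BMC10. Tktl1 differed by 6.00 in the marrow pair, 0.19 in the AGM pair and -0.04 in the FL pair. Eng, at 4.46 in marrow, differed by -0.35 in the AGM pair and ran the other way in FL (-3.29), where AFT024 averaged 7.16 and BFC012 10.45. Eng averaged 11.07 in UG26.1B6 and 11.43 in UG26.3B5, so that BMC9, at 11.46, had a level like theirs, and BMC10 a level like that of AFT024. Tmem47 had opposite differences in marrow (4.61) and AGM (-2.92). The remaining genes with the largest excess in measured signal were Rpl39l, Eif2s3y and Ifi202b, whose differences in the AGM and FL pairs lay between -0.03 and 0.18. Rpl39l and Eif2s3y averaged 3.57 to 4.12 in the AGM and FL lines, under the background level of the marrow arrays. Ifi202b averaged 7.15 in both AGM lines, but 4.00 in AFT024 and 4.01 in BFC012.

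Below both other pairs, Bcl6b and Grb10 differed only slightly in the AGM pair (0.19 and -0.09) and the FL pair (-0.09 and -0.16), none of them past the threshold. Bcl6b averaged 5.54 to 5.74 in these lines, under the background level of the marrow arrays, whereas Grb10 was bright in them, at 10.29 to 12.09. C3ar1 differed by -3.54 in marrow but by 2.70 in FL, where AFT024 was the higher line. Klra6 showed the same contrast, with -3.11 in marrow and 3.61 in FL. Nlrp4e differed by -4.11 in marrow and 1.29 in FL, where AFT024 averaged only 4.99, under the background level of the marrow arrays. Dynap, a membrane protein gene, read 6.73, 8.83 and 8.16 in BMC9, against 8.86, 8.83 and 10.10 in BMC10, with overlapping lines and a difference of -1.36 ± 0.37 (SE), against 2.18 in the AGM pair and 4.73 in the FL pair. Within marrow its call was lost without the first BMC9 array (-0.77, adjusted p = 0.156) and without the third BMC10 array (-0.94, adjusted p = 0.116). Cxcl12 differed by 2.58 in marrow, 1.08 in the AGM pair (adjusted p = 0.000125) and -0.41 in the FL pair (adjusted p = 0.117). Its marrow difference exceeded that of the AGM pair by 1.50 and that of the FL pair by 2.99 (limma adjusted p = 9.88e-05 and 6.37e-11).

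**Figure D5:**
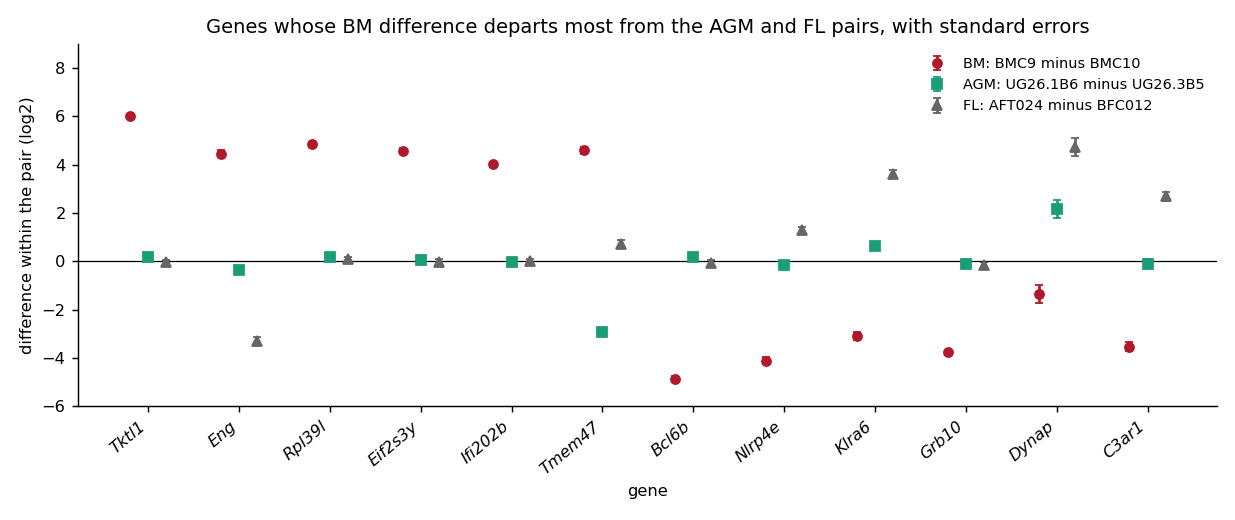
Difference within the marrow, AGM and FL pairs (log2, the supportive line minus the other) for the 12 genes whose marrow difference departs most from both other pairs, with bars for standard errors. The marrow points lie above both others in the first 6 genes and below both in the last 6. The FL points of Eng, Nlrp4e, Klra6, Dynap and C3ar1 lie clearly on the other side of 0 from the marrow points.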

How the data were processed

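The 3 BMC9 and 3 BMC10 arrays (Affymetrix mouse gene 1.0 ST) were analysed from the series' value table. The deposited values are log2 signals per probe set, which the authors made, the submitters' processing notes naming RMA and Partek; their versions and settings and the genome build are not given in the sources used here. All 18 confluent arrays of the 6 lines compared were normalized as 1 set: their percentiles lie within 0.138 log2 units of each other, and every other array departs from them by 0.556 or more. Of 35556 probe sets, 21789 named 1 gene symbol and were used (1621 named several and 12146 none); for 999 genes with several, the one with the highest mean over the 39 confluent arrays was taken, which left 19938 genes, 19856 of them found by Entrez identifier in the RefSeq gene table, from which chromosomes and gene order were read. Symbols and probe-to-gene pairs are those of GEO's platform annotation, which can be old.

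Differences are BMC9 minus BMC10, from limma 3.58.1 (R 4.3.3) with 1 mean per line over the 39 confluent arrays (26 residual degrees of freedom), two-sided moderated tests and Benjamini-Hochberg adjustment over all genes at 0.05, checked on simulated data. Tables and figures were made with Python 3.11.15, pandas 2.3.3 and matplotlib 3.10.9. The 3 arrays per line limit the precision. Deviations of same-numbered BMC9 and BMC10 arrays correlated at r = 0.324, 0.116 and 0.436 across genes, and those of differently numbered arrays at -0.417 to 0.194. A fit with the replicate number as a block was therefore an alternative. The value of the second arrays lay within the range of the differently numbered ones.

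The comparison, the 57 gene lists and the rule for named genes were chosen with earlier results of these data known. Named were the 24 genes with the largest difference per direction among calls without overlap (clone, RIKEN, small RNA and receptor-repeat symbols left out), up to 8 calls per list (every member of short lists could be named), miRNA genes with a difference of at least 1, 6 calls per chromosome and 6 genes per direction for the comparison of pairs. Named after their values were seen were the miRNA genes other than Mir196a-1, Nr6a1, the genes of the chromosome 12 stretch, Nhlrc3, Sparc, Cep170, Ccbe1, Aim2, Sp100, Sp140, and Cxcl12 in the comparison of pairs. Lists were described by counts, without a set test. Alternatives were other sets of arrays, the block, each array left out, a filter on dim genes, other normalizations, the mean of probe sets, a variance trend and a test against 2-fold.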

Additional observations from a re-analysis of the deposited data

Results flagged for a closer look

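The marrow difference was larger than both the AGM and the FL difference in 569 genes and smaller than both in 685, each by limma tests of the difference between pairs. The smaller of the 2 excesses of measured signal, on the log2 scale, was 5.81 for Tktl1, 4.81 for Eng, 4.69 for Rpl39l, 4.53 for Eif2s3y, 4.02 for Ifi202b and 3.88 for Tmem47. In the other direction it was -4.78 for Bcl6b, -3.97 for Nlrp4e, -3.74 for Klra6, -3.61 for Grb10, -3.53 for Dynap and -3.43 for C3ar1. For Eng, Tmem47, Klra6, Dynap and C3ar1 at least 1 of the other pairs differed with the opposite sign by more than 2 log2 units, and for Tktl1, Rpl39l, Eif2s3y, Ifi202b, Bcl6b and Grb10 both other pairs differed by less than 0.2. Among the latter genes, only Grb10 in both other pairs and Ifi202b in the AGM pair averaged above the background level of the marrow arrays. Nlrp4e differed by -0.14 in the AGM pair and by 1.29 in the FL pair. The lower marrow line was not above background for Tktl1, Rpl39l, Eif2s3y, Ifi202b, Tmem47, Bcl6b, Nlrp4e, Klra6 and Grb10, so their excesses give neither a size nor an order. The marrow difference itself was at least 41.1-fold for Tktl1, 6.84-fold for Rpl39l, 4.11-fold for Eif2s3y, 3.68-fold for Ifi202b, 16.5-fold for Tmem47, 19-fold for Bcl6b, 3.7-fold for Nlrp4e, 1.85-fold for Klra6 and 9.56-fold for Grb10. Single arrays of a line were not tested as outliers.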

How the results depend on the processing

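With the 18 arrays of the normalization set 909 genes were higher and 991 lower in BMC9, and the comparison of pairs gave 326 genes above and 402 below both other pairs. With the 6 BM arrays alone the counts were 625 and 675, and 642 and 669 after quantile normalization of those arrays. Tested against a minimum of 2-fold, 100 genes were higher and 81 lower. Leaving out 1 array at a time gave 1101 to 1488 higher and 1287 to 1533 lower genes, and, added after seeing the data, 495 to 592 genes above and 584 to 708 below both other pairs. With the replicate number as a block the counts were 1579 higher and 1747 lower over 39 arrays and 1019 and 1095 over the 6 BM arrays; with a block in each of the 3 pairs, 787 genes lay above and 985 below both other pairs. The filter on dim genes, the variance trend, the mean of probe sets and median centring kept the counts of higher and lower genes within 1.5 times, although centring gave 1087 and 2096. Added after seeing the data, chromosomes were counted over genes above background; over all genes, 164 of 732 were lower on chromosome 13 and 136 of 652 higher on chromosome 12.

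Of the 300 genes named, 286 were called, 0 of these changed sign under the alternatives, and 185 passed in every setting run for them, the test against 2-fold and the block in each of the 3 pairs aside. The block over 39 arrays ended 0 calls, the 18-array fit ended 45, the 6-array fit 84 and the 6-array fit with the block 35; quantile normalization of those arrays ended 87, median centring 10 and the variance trend 4. Without a single array the calls that ended, with the range of their adjusted p, were as follows. Without the first BMC9 array (0.0583 to 0.604): Ackr3, Acss2, Agt, Bmp5, Ccn3, Dynap, Fst, Hgf, Hoxa7, Id2, Igf1, Kitl, Lama4, Lgr5, Mir100hg, Mir125b-1, Mir694, Npnt, Npr1, Oasl2, Ptgs2, Rspo3, S1pr3, Sox9, Sparc, Taldo1, Tap2, Tmem179 and Unc5b. Without the second BMC9 array (0.0516 to 0.251): Adamts14, Alpl, Flrt3, Fst, Fzd6, Hgf, Hoxa13, Ltbp1, Mir125b-1, Mir694, Pparg, S1pr3, Taldo1, Tap2, Tgfbr1 and Tmem179. Without the third BMC9 array (0.0508 to 0.281): Adamts1, Angptl4, Ccl2, Cep170, Flrt3, Fst, Igf1, Ltbp1, Mir100, Mir125b-1, Mir350, Nbl1, Npnt, Pparg, Ror1, Rps6kc1, Tgfbr1, Tnfsf11 and Tslp. Without the first BMC10 array (0.0503 to 0.153): Adamts14, Flrt3, Fst, Fzd6, Hes6, Hgf, Hoxa7, Ltbp1, Mirlet7c-1, Nbl1, S1pr3, Sox9 and Taldo1. Without the second BMC10 array (0.0501 to 0.315): Angptl4, C1s1, Ccl2, Ccn3, Flrt3, Hgf, Hoxa13, Kitl, Lama4, Mir100, Mir125b-1, Mir181b-2, Mir350, Mir694, Npnt, Npr1, Ptgs2, Rps6kc1, Rspo3, S1pr3, Sox9, Tap2, Tgfbr1, Tmem179, Tnfsf11 and Tslp. Without the third BMC10 array (0.0575 to 0.478): Ackr3, Acss2, Adamts14, Bmp5, Ccl2, Ccn3, Dynap, Fst, Hgf, Hoxa7, Hoxb2, Igf1, Kitl, Ltbp1, Mir100hg, Mir125b-1, Mir694, Npnt, Npr1, Oasl2, Pparg, Ptgs2, Sparc, Taldo1, Tap2, Tmem179, Tnfsf11 and Unc5b. Among calls that held, the difference moved by over 1.5 times without the first BMC9 array for Aspn (0.64), Col4a6 (0.45), Il1rn (0.37) and Tenm4 (0.45), without the third BMC9 array for Ccn3 (1.72), without the first BMC10 array for Mir99a (-0.64), without the second BMC9 array for Npnt (-0.79), without the third BMC10 array for Pdgfrb (0.54), without the second BMC10 array for Xist (-0.33). Tkt passed after centring (adjusted p = 0.0457) and without the third BMC10 array (adjusted p = 0.0251). Of 114 counts of list members, 46 stayed within 1.5 times with the 6 BM arrays and 108 with the block over 39 arrays. The fits to fewer arrays have fewer degrees of freedom, and their standard errors differed too. For Agt, Kitl and Bmp4 these were 0.33, 0.21 and 0.38 with 39 arrays, and 0.43, 0.28 and 0.53 with the 18. With the 6 BM arrays they were 0.55, 0.19 and 0.59. What made the calls end was not tested. Where both lines were under the background level, the arrays give no fold, and where 1 line was, only a bound.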

Other observations

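Solute carriers gave 37 higher (10.3%) and 23 lower (6.41%) of 359, near the 7.28% and 8.18% of all genes. The mitochondrial carrier Slc25a21 (2.86), the glutamate transporter Slc1a3 (2.64) and the exchanger Slc24a3 (2.00) were the largest of the higher ones. Complement genes gave 3 higher, among them the lectin pathway protease Masp1 (1.76), and 2 lower, C3ar1 and C1s1 (-1.09), of 19. Smooth muscle and pericyte genes gave 4 higher and 1 lower of 20, the light chain gene Myl9 (-1.39) being the lower one. Ribosomal protein genes gave 2 higher and 2 lower of 65, and 3 of these 4 were Rpl39l, Rps6ka6 (2.37) and Rps6kc1 (-0.28). Rps6ka6 and Rps6kc1 are kinase genes that the symbol pattern of the list takes in, and they are not ribosomal proteins. Metallothionein and antioxidant genes gave 1 higher and 1 lower of 22 (4.55% each, under the 7.28% and 8.18% of all genes).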
